A study of Mus musculus with 2 samples.

Results

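Oxidative phosphorylation is the route by which mitochondria turn the energy of NADH and succinate into ATP. Complex I (NADH dehydrogenase) and complex II (succinate dehydrogenase) pass electrons to ubiquinone, complex III hands them to cytochrome c, complex IV (cytochrome c oxidase) gives them to oxygen, and complex V (ATP synthase) uses the proton gradient built on the way. Most subunits are encoded in the nucleus and imported, while a small set comes from the mitochondrial genome, and fibroblasts that turn into myofibroblasts are known to raise glycolysis.

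The genes described here are the nuclear-encoded ones, chosen as those whose deposited pathway annotation includes Oxidative phosphorylation, leaving out mitochondrially encoded genes and the subunits of the vacuolar proton pump. There were 86 of them among 14694 genes. By symbol, 36 belonged to complex I, 4 to complex II, 9 to complex III, 14 to complex IV, 15 to complex V and 4 to the assembly of complex IV, and 4 were other enzymes of the pathway. The rule used no measured value.

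Counts came from 2 RNA libraries with mouse lung fibroblasts as their labelled source, 1 titled IR and 1 titled NC, both carrying the number 4. The labels do not spell out these names, give no strain, dose, time or age, and do not say whether the RNA was taken from cells or from vesicles, although the protocol describes the centrifugation of culture supernatants. The series as a whole concerns radiation-induced lung fibrosis and rosmarinic acid. The comparison asks how far the respiratory chain genes differ from NC to IR. With 1 library a group no difference has a replicate check, so no p-value was computed, and each statement is about these libraries and not about the conditions. In bulk RNA, fewer cells of a type and less RNA per cell cannot be told apart.

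The libraries held 35219511 counted reads (IR) and 36084512 (NC). Ratios are log2 ratios of IR over NC, from CPM, the counts per library size after TMM scaling, for the 10921 genes with at least 50 reads over both libraries. Each has an exact 95% interval from the split of its reads (Clopper-Pearson), which covers counting error only. Of 10 fibroblast markers looked up, 7 matched a table gene, with sums of 2856 (IR) and 2880 CPM (NC). Most of each sum came from Vim (vimentin), with 76565 and 66290 reads (2195 and 1820 CPM, log2 ratio 0.27). Col1a1 (-1.27), Col1a2 (-0.73), Pdgfrb (-0.42), Pdgfra (-0.41) and Col3a1 (-0.23) were lower in IR, each with an interval below 0. Dcn had 30 and 7 reads and was not compared. The like sums thus do not mean like values of the single markers. The 4 matched epithelial markers summed to 1.03 and 1.02 CPM, with the surfactant gene Sftpc at 0 and 2 reads, and the 4 endothelial markers to 2.69 and 1.65 CPM. The 3 matched leukocyte markers reached 83.8 CPM (IR) and 60.3 CPM (NC), nearly all from Cd68, which other cells also express, while Ptprc, the general leukocyte gene, had 4 and 0 reads. No marker matched was at 0 in both libraries. The part of these markers in the results below was not tested.

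The respiratory chain genes as a group lay slightly higher in the IR library. Of the 86 genes 80 had enough reads to be compared, and their median log2 ratio was 0.19 against -0.0069 over all compared genes. The middle 50% of the members lay between 0.03 and 0.31, a narrower span than the -0.24 to 0.22 of all compared genes. Of the 80, 61 had a ratio above 0, where 49.1% of all compared genes did. The counting interval lay above 0 for 48 members (60%) and below 0 for 14 (17.5%), against 31.2% of all compared genes above and 32.4% below. A counting interval narrows with read number, so such shares also depend on depth, and the genes compared were not matched for it. In size the differences were small. Only 2 members were at least 1.5-fold higher with an interval that excluded no difference, against 6.09% of all compared genes, and 2 were at least 1.5-fold lower, against 6.9%. With a limit of 25% above the other library, 16 members were higher and 4 lower, where 15.2% and 17.2% of all compared genes were. By the 2-fold limit no member was higher and 1, Cox6a2, was lower, where 1.6% and 1.82% of all compared genes were. The members' share of all reads was 2.02% (IR) and 1.82% (NC), and their summed reads gave a log2 ratio of 0.18. Without Atp5b, the most abundant member by reads, that value was 0.20.

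**Figure D1:**
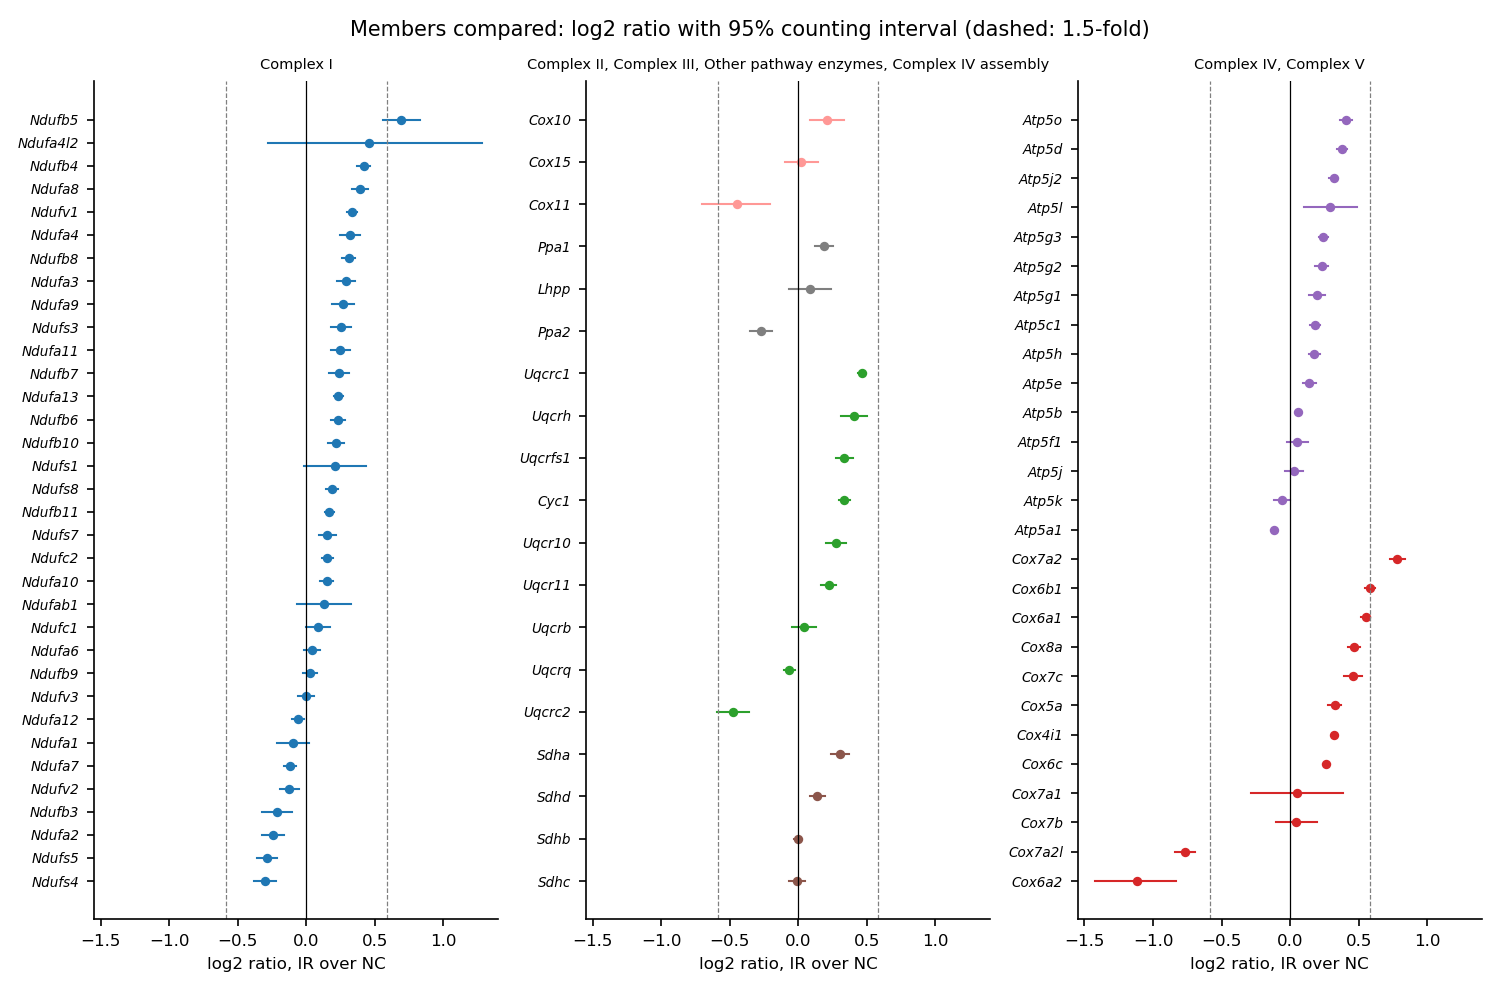
Log2 ratio of IR over NC for each of the 80 compared members, grouped by complex, with horizontal bars for the 95% counting interval and dashed lines at a 1.5-fold difference. Most points lie between 0 and the upper dashed line, Cox7a2 and Ndufb5 lie above it, and Cox7a2l and Cox6a2 lie below the lower one.

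Complex IV and complex III had the highest medians, 0.32 over 12 compared genes and 0.28 over 9. Complex V (0.18, 15 genes) and complex I (0.18, 34 genes) followed, and complex II was lowest of the 5 at 0.07 over its 4 genes. Without members with at least 10% of their 50-base words shared, the order of the first pair turned, with 0.34 for complex III and 0.26 for complex IV. By summed reads complex IV was first (0.36) and complex II last (0.06). The order of complexes I and V, whose medians round to the same value, is not read here. Whether the complexes differ from each other was not tested, since their genes share the same 2 libraries.

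**Figure D2:**
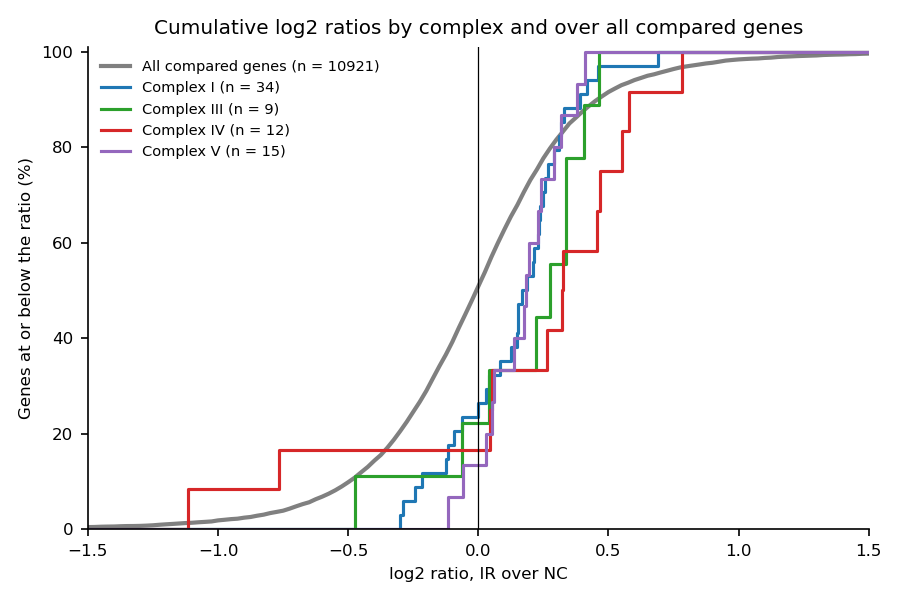
Cumulative share of genes (percent) at or below each log2 ratio of IR over NC, for all compared genes and for complexes I, III, IV and V. The curves of complexes I, III, IV and V cross a share of 50% at 0.18, 0.28, 0.32 and 0.18, right of all compared genes, and complex IV has 2 genes far to the left.

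Complex I is the largest of the complexes, with a core that carries the flavin and the iron-sulphur clusters and a shell of supernumerary subunits. Its 34 compared genes ranged from -0.30 to 0.69, with 19 counting intervals above 0 and 7 below. These were 55.9% and 20.6%, against 31.2% and 32.4% of all compared genes. The core subunits had a median of 0.20 over 6 compared genes against 0.16 over the other 28. Ndufv1, which binds NADH through flavin, had 12554 IR and 10424 NC reads (log2 ratio 0.33, interval 0.29 to 0.37). Ndufs3, a core subunit of the peripheral arm, had 3225 and 2821 reads (0.26, interval 0.18 to 0.33), with 39.7% of its words shared with other genes. Ndufv2, which holds an iron-sulphur cluster beside Ndufv1, had 3363 and 3826 reads (-0.12, interval -0.19 to -0.06). Thus Ndufv1 and Ndufv2, which bind each other in the NADH-oxidising module, lay on opposite sides of 0.

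Among the supernumerary subunits of complex I the highest ratio belonged to Ndufb5 of the membrane arm, with 1186 IR and 766 NC reads (0.69, interval 0.56 to 0.83). It was the member of complex I past 1.5-fold, but 12.3% of its exon sequence overlaps Mrpl47, and without a stated strand setting the reads of overlapping genes cannot be told apart. The gene lies at chr3:32736990-32751566 on the plus strand (GRCm38). Ndufa4l2, a paralog of Ndufa4 that is induced in low oxygen, came next at 0.46 and was placed in complex I by its symbol alone. Its 35 and 26 reads gave an interval of -0.28 to 1.28 that spans 0. Ndufb4 had 8591 and 6712 reads (0.42, interval 0.37 to 0.46), and 37.0% of its 50-base words also occur in other annotated transcripts. Ndufa8 had 5586 and 4447 reads (0.39, interval 0.33 to 0.45). The intervals of Ndufb5, Ndufb4 and Ndufa8 lay above 0, and that of Ndufa4l2 did not.

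At the low end of complex I, Ndufs4, a supernumerary subunit whose loss causes mitochondrial disease in mice and humans, had 2083 IR and 2682 NC reads (-0.30, interval -0.39 to -0.22). Ndufs5 had 2788 and 3557 reads (-0.29, interval -0.36 to -0.22), with 22.9% of its words shared with another gene. Ndufa2 had 2487 and 3074 reads (-0.24, interval -0.32 to -0.17), with 11.5% of its exon sequence overlapping Tmco6. In no gene of complex I did NC exceed IR by 25% or more. Ndufa4, named for complex I but now known as a subunit of complex IV, had 3269 and 2737 reads (0.32, interval 0.24 to 0.39). By symbol, Ndufa4 and Ndufa4l2 were both counted in the numbers and medians given for complex I.

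Levels within complex I differed far more than the libraries did. Per length, in CPM per kilobase of coding transcript, Ndufc2 was highest at 530 in IR and 477 in NC, Ndufb11 had 512 and 456, and Ndufa7 435 and 471. The median of the 36 genes was 158 in IR and 145 in NC. Toward the other end Ndufb2 had 19 and 25 reads and was not compared. The core subunit Ndufs1 was also low, with 349 and 315 reads and a level of 3.81 and 3.29. Their exon overlaps with other genes were 7.94% (Ndufb2) and 6.16% (Ndufs1), and both were low in each library. The cause of these low values in genes that most cells use was not tested, and they are not read as absence of expression.

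Complex II joins the chain to the citric acid cycle and has no mitochondrially encoded subunit. Its flavoprotein Sdha had 3919 IR and 3311 NC reads (log2 ratio 0.31, interval 0.24 to 0.37), and the membrane anchor Sdhd 5092 and 4826 reads (0.14, interval 0.08 to 0.20). The iron-sulphur subunit Sdhb had 15801 and 16517 reads (-0.0015, interval -0.03 to 0.03), and the other anchor Sdhc 4808 and 5052 reads (-0.0090, interval -0.07 to 0.05). Sdha and Sdhd were thus the higher in IR, while the intervals of Sdhb and Sdhc spanned 0, and both changed sign with upper-quartile scaling. Per length Sdhb stood out, at 397 in both libraries, against 38.7 in IR and 31.3 in NC for Sdha.

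In complex III, Uqcrc1, a core protein that faces the matrix, had 18995 IR and 14379 NC reads (log2 ratio 0.46, interval 0.43 to 0.50). The hinge protein gene Uqcrh had 2092 and 1649 reads (0.41, interval 0.31 to 0.50). Both nuclear-encoded redox subunits had the same rounded ratio. Uqcrfs1, the Rieske iron-sulphur protein, had 4382 and 3623 reads, Cyc1, cytochrome c1, had 10025 and 8293 reads, and the log2 ratio was 0.34 for each. Uqcrc2, the core protein that pairs with Uqcrc1, was lower in IR, with 1006 and 1459 reads (-0.47, interval -0.59 to -0.36). The reads of Uqcrc1 were 18.9 times those of Uqcrc2 in IR and 9.86 times in NC, a log2 change of 0.94 (95% interval 0.82 to 1.06, from the variance of the log counts). Of the exon sequence of Uqcrc2, 19.7% overlaps Pdzd9. Uqcrq (9001 and 9825 reads, -0.06) and Uqcrb (2095 and 2129 reads, 0.04, below 0 when centred on length) lay nearest to 0. Of the words of Uqcrb, 43.4% are shared with other genes. Uqcrq was the most abundant gene of the complex per length, at 512 in IR and 535 in NC, followed by Uqcr11 (360 and 309, log2 ratio 0.22).

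Complex IV held both the highest and the lowest ratio among all compared members. Cox7a2, the widely expressed form of subunit VIIa, had 6774 IR and 4109 NC reads (log2 ratio 0.78, interval 0.73 to 0.84), a 1.72-fold difference. The gene lies at chr9:79755361-79759878 on the minus strand (GRCm38), and no exon overlap or shared 50-base word was found for it in the annotation. Cox6b1, which faces the intermembrane space, had 14872 and 10390 reads (0.58, interval 0.54 to 0.62). Its fold of 1.49 lies just under the 1.5-fold limit. Cox6a1, the widely expressed form of subunit VIa, had 19631 and 13997 reads (0.55, interval 0.52 to 0.58). Cox8a (9899 and 7469 reads) and Cox7c (4548 and 3457 reads), both small membrane subunits, had ratios of 0.47 and 0.46. Shared words made up 23.0% for Cox7c and 12.3% for Cox6a1. The most abundant genes of the complex differed less. Cox4i1, the regulatory subunit IV and the highest of all members per length at 2501 in IR and 2001 in NC, had a ratio of 0.32 (interval 0.31 to 0.34), and Cox6c, at 1132 and 943, one of 0.26. Of the 12 compared genes of complex IV, 8 had an interval above 0 and 2 below, against 31.2% and 32.4% of all compared genes. With the limit of 25%, 6 were higher and 2 lower, against 15.2% and 17.2%.

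The muscle and assembly-related paralogs of complex IV did not share the higher ratios of these subunits. Cox6a2, the form of subunit VIa known from heart and skeletal muscle, had 140 IR and 319 NC reads (-1.11, interval -1.42 to -0.83), with 10.3% of its exon sequence overlapping Itgad, at chr7:128205435-128206387 on the minus strand. Cox7a2l, a relative of Cox7a2 that joins complexes III and IV in supercomplexes, had 2287 and 4058 reads (-0.76, interval -0.84 to -0.69), with 17.8% of its 50-base words found in an annotated pseudogene. It lies at chr17:83501918-83517330 on the minus strand. Cox7a1, the heart and muscle form of subunit VIIa, had 150 and 151 reads (0.05, interval -0.28 to 0.39), and Cox7b had 733 and 742 reads (0.04). Both of these ratios were below 0 when centred on length. Cox7b2, a paralog of Cox7b, had 0 IR and 8 NC reads and was not compared; the exact interval of its log2 ratio ended at -0.71. Cox4i2, the isoform of Cox4i1 known from lung and from low oxygen, had 0 and 3 reads and allows no fold.

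The shares of the subunit VIIa paralogs differed between the libraries. Per length, Cox7a2 gave 81.0% of the summed level of Cox7a1, Cox7a2 and Cox7a2l in IR and 60.8% in NC, while Cox7a2l gave 16.3% and 35.9%. The reads of Cox7a2 were 2.96 times those of Cox7a2l in IR and 1.01 times in NC, a log2 change of 1.55 (interval 1.46 to 1.64). For subunit VIa, Cox6a1 gave nearly all of the level, 99.4% in IR and 98.1% in NC. Each of these values rests on the same pair of libraries.

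**Figure D3:**
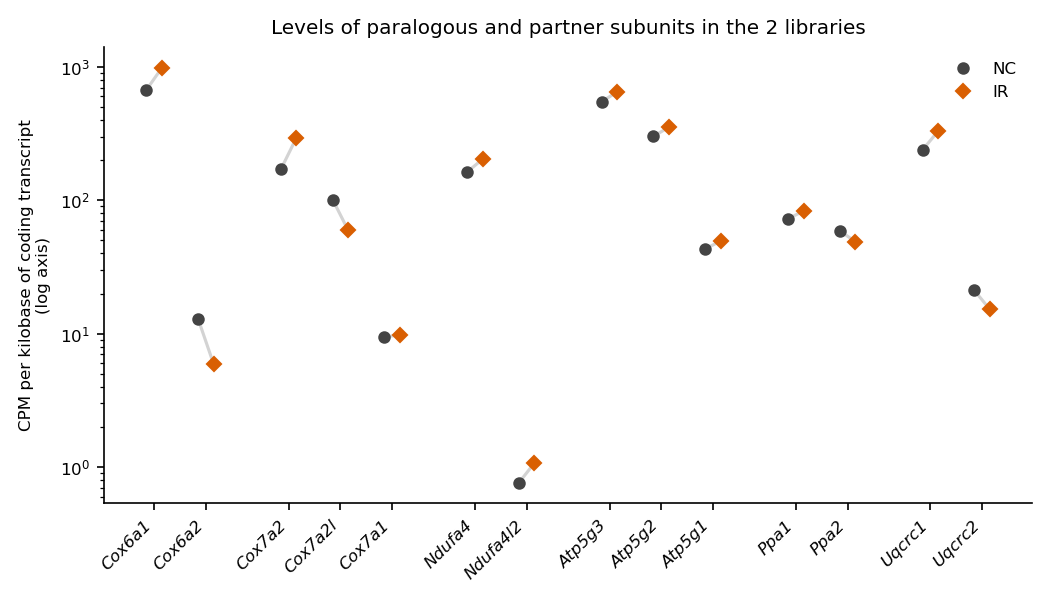
Level in CPM per kilobase of coding transcript (log axis) in the NC library (circles) and the IR library (diamonds) for paralogous or partner genes; each point is 1 library and has no replicate error. Cox7a2 and Cox7a2l diverge, as do Cox6a1 and Cox6a2 and Uqcrc1 and Uqcrc2, while the 3 Atp5g genes have like ratios, from 0.19 to 0.24.

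The 4 assembly factors of complex IV among the members had levels per length of at most 11.4 in IR. The 14 subunit genes of complex IV had a median of 268 there. Cox7a1 (9.79) and Cox6a2 (5.90) also lay below 11.4, as did Cox7b2 and Cox4i2, at 0. Cox10, which makes the haem A precursor, had 1156 IR and 1043 NC reads (0.21, interval 0.09 to 0.33), and Cox15, the next enzyme of that step, 1072 and 1102 reads (0.02, interval -0.10 to 0.15, below 0 with total counts). Cox11, a copper chaperone, had 231 and 330 reads (-0.45, interval -0.70 to -0.21), but 48.3% of its exon sequence overlaps Tom1l1. Cox17, another copper chaperone, had 14 and 10 reads and was not compared. Cox17 is widely expressed, and the counting rules behind so low a value in both libraries are not given in the sources used here, so it is not read as absence of expression.

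Complex V had the tightest spread of the larger complexes, from -0.12 to 0.41 over 15 genes, with 11 intervals above 0 and 1 below. These were 73.3% and 6.67%, against 31.2% and 32.4% of all compared genes. The catalytic beta subunit gene Atp5b was the most abundant member by reads, with 125082 IR and 125192 NC reads (log2 ratio 0.06, interval 0.05 to 0.07). Atp5a1, the alpha subunit that alternates with beta in the F1 head, had 45400 and 51443 reads (-0.12, interval -0.14 to -0.10), the gene of complex V with its interval below 0. Atp5c1, the gamma subunit of the rotor, had 12973 and 11946 reads (0.18, interval 0.15 to 0.22), and Atp5d, the delta subunit, 15546 and 12487 reads (0.38, interval 0.34 to 0.41). Of these genes alpha had the lowest ratio and delta the highest. The highest ratio was that of Atp5o, the stalk protein that confers sensitivity to oligomycin, with 10301 and 8102 reads (0.41, interval 0.37 to 0.45), although 47.9% of its exon sequence overlaps other annotated genes. Atp5j2 of the membrane part had 16228 and 13598 reads (0.32, interval 0.28 to 0.35). At the low end stood Atp5k (4452 and 4841 reads, -0.06) and Atp5j (3777 and 3867 reads, 0.03, below 0 when centred on length).

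The proton-carrying c ring of complex V is encoded by 3 genes with different import sequences and the same mature protein. Atp5g3 had 16277 IR and 14370 NC reads, Atp5g2 7232 and 6442, and Atp5g1 4618 and 4213. Their log2 ratios were 0.24, 0.23 and 0.19, and their shares of the summed level per length stayed close between the libraries, with 61.7% and 61.4% from Atp5g3. Of the 50-base words of Atp5g2, 87.4% occur in other annotated transcripts, so its value is uncertain.

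The last members are enzymes that split pyrophosphate and related compounds, and a proton pump. Ppa1, the cytosolic pyrophosphatase, had 3951 IR and 3614 NC reads (0.19, interval 0.13 to 0.26), while its mitochondrial counterpart Ppa2 had 2217 and 2789 (-0.27, interval -0.35 to -0.19). Lhpp, a phosphatase, had 710 and 698 reads (0.09, interval -0.07 to 0.24), and Atp12a, a potassium-transporting ATPase of other tissues, had 2 in each.

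Transcript length was related to the ratios. The compared members had a median coding transcript length of 810 bases, against 2728.5 over the 10772 compared genes with a length, and 53 of the 80 fell in the shortest 10% of those genes. Those genes had a median log2 ratio of 0.08, and the longest 10% one of -0.09. Other genes within the middle 50% of the members' lengths (572 to 1319 bases) had a median of 0.07 over 1365 genes, and those within the middle 50% of the members' summed CPM had 0.02 over 1893. After the ratios were centred on the trend over length, the members' median was 0.13 and 55 of the 80 were above 0. Within the members Spearman's rho between ratio and length was -0.11 over 80 genes, which share the 2 libraries. The part of length in the members' higher ratios was otherwise not tested.

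**Figure D4:**
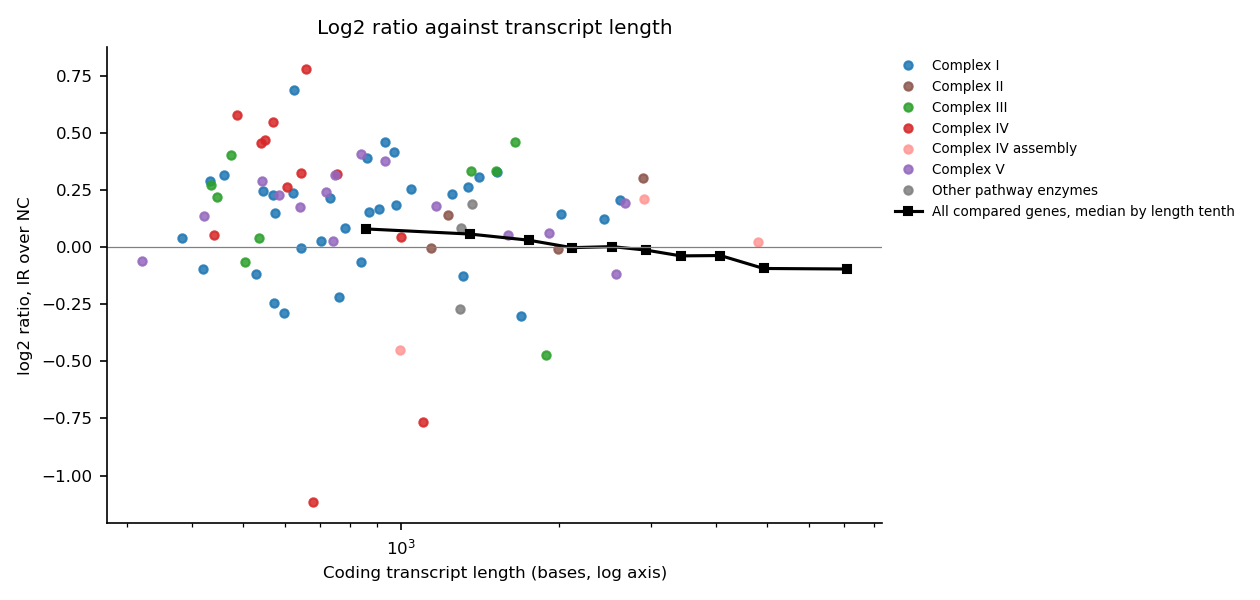
Log2 ratio of IR over NC against coding transcript length (bases, log axis) for the 80 compared members, coloured by complex, with black squares for the median of all compared genes in each 10% of genes by length. The black line runs from 0.08 at the short end to -0.09 at the long end. The smooth trend over length used for centring, above which 55 of the 80 members lie, is not drawn.

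Genes of 2 other large assemblies with short transcripts were set beside the members. The 72 compared mitochondrial ribosomal protein genes had a median of 0.14 with 41 intervals above 0 and 6 below, and the 77 compared cytosolic ribosomal protein genes a median of 0.07 with 46 above and 27 below. Over all compared genes 31.2% of intervals lay above 0 and 32.4% below. The respiratory chain median of 0.19 was above both medians. By summed reads the mitochondrial ribosomal protein genes were higher, with a log2 ratio of 0.23 against 0.18 for the members. Of their ratios 75% lay above 0, against 76.25% for the members. No test of the differences can be made from 2 libraries.

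The genes that build the complexes had a lower median than the subunits in complex I. Of the 15 compared assembly factors of complex I, 3 had an interval above 0 and 5 below, with a median of -0.04. These were 20% above and 33.3% below, against 31.2% and 32.4% of all compared genes. The lowest were Ndufaf5 (445 IR and 619 NC reads, -0.41) and Ndufaf2 (639 and 863 reads, -0.37), an assembly chaperone 65.6% of whose exon sequence overlaps another gene. The highest were Tmem126b (112 and 78 reads, 0.57) and Ecsit (1466 and 1075 reads, 0.51), both parts of the assembly complex for the membrane arm. Sdhaf1, the only compared factor of complex II, had 843 and 992 reads (-0.17). Its value is uncertain, since 69.6% of its exon sequence overlaps another gene and 69.0% of its words are shared. The 4 compared factors of complex III had a median of 0.20, all above 0, from Lyrm7 (78 reads in each, 0.06) and Bcs1l (0.17), which inserts the Rieske protein, to Uqcc2 (17456 and 15580 reads, 0.23) and Ttc19 (0.34).

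Assembly factors of complex IV outside the members had a median of 0.14 over 14 genes, with 7 intervals above 0 and 2 below. These were 50% and 14.3%, against 31.2% and 32.4% of all compared genes. Cox19 (2489 IR and 1691 NC reads, 0.62), which supports copper delivery, was the one past 1.5-fold. It was followed by Slirp (1035 and 756 reads, 0.51), a partner of Lrpprc in stabilising mitochondrial mRNA, 97.8% of whose exon sequence lies over Alkbh1 and Snw1. Cox20 (213 and 328 reads, -0.56), with 91.1% of its exon sequence overlapping Hnrnpu, and Coa5 (1151 and 1446 reads, -0.27) were lowest. Among the 7 genes tied to complex V, Usmg5, a small subunit that the pathway annotation does not list, had 9918 and 6191 reads (0.74, interval 0.70 to 0.79), and 2010107E04Rik, the gene of another small subunit, 3830 and 2833 reads (0.50). Atpaf1, an F1 assembly factor, had 31 and 71 reads (-1.09, interval -1.79 to -0.51), with 31.9% of its words shared, and the coupling factor gene Atp5s had 226 and 472 reads (-0.99, interval -1.24 to -0.77). So 1 gene of the 7 was past 1.5-fold upwards and 2 downwards, where 6.09% and 6.9% of all compared genes were.

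Among the mobile carriers between the complexes, Cycs, cytochrome c, had 12342 IR and 14420 NC reads (-0.16, interval -0.20 to -0.13), with 28.5% of its words shared with other genes. Over the 19 compared genes of cytochrome c, coenzyme Q synthesis, the adenine nucleotide and phosphate carriers and the outer membrane channels, the median was 0.03. Of their intervals 8 lay above 0 (42.1%) and 6 below (31.6%), against 31.2% and 32.4% of all compared genes. Pdss1, which makes the side chain of coenzyme Q, was highest (67 and 41 reads, 0.74), and Hccs, which attaches haem to cytochrome c, next (0.51). The channel Vdac3 (6765 and 10303 reads, -0.54) and the hydroxylase Coq7 (728 and 991 reads, -0.38) were lowest. Of the words of Vdac3, 49.2% are shared with other genes. Of the supercomplex genes besides Cox7a2l, Higd2a had 2846 and 2180 reads (0.45) and Higd1a 2717 and 3257 (-0.20).

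Transcriptional regulators of respiratory genes had a median of -0.10 over 12 compared genes. Of these, 3 ratios (25%) lay above 0, against 49.1% of all compared genes, and 9 below. The 3 were Gabpb1, the beta partner of the ETS factor GABPA (67 and 42 reads, 0.71), the mitochondrial rRNA methyltransferase Tfb1m (266 and 183 reads, 0.60) and the orphan receptor Esrra (3471 and 2624 reads, 0.47). Lowest were the mitochondrial elongation factor Tefm (55 and 86 reads, -0.57) and the coactivator Ppargc1b (66 and 88 reads, -0.34). Nrf1, nuclear respiratory factor 1, had 1741 and 1848 reads (-0.02, interval -0.12 to 0.07), and Tfam, which packages mitochondrial DNA, 662 and 832 (-0.27). Gabpa itself, also a widely expressed gene, had 0 and 2 reads and was not compared, and its value is likewise not read as absence.

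**Figure D5:**
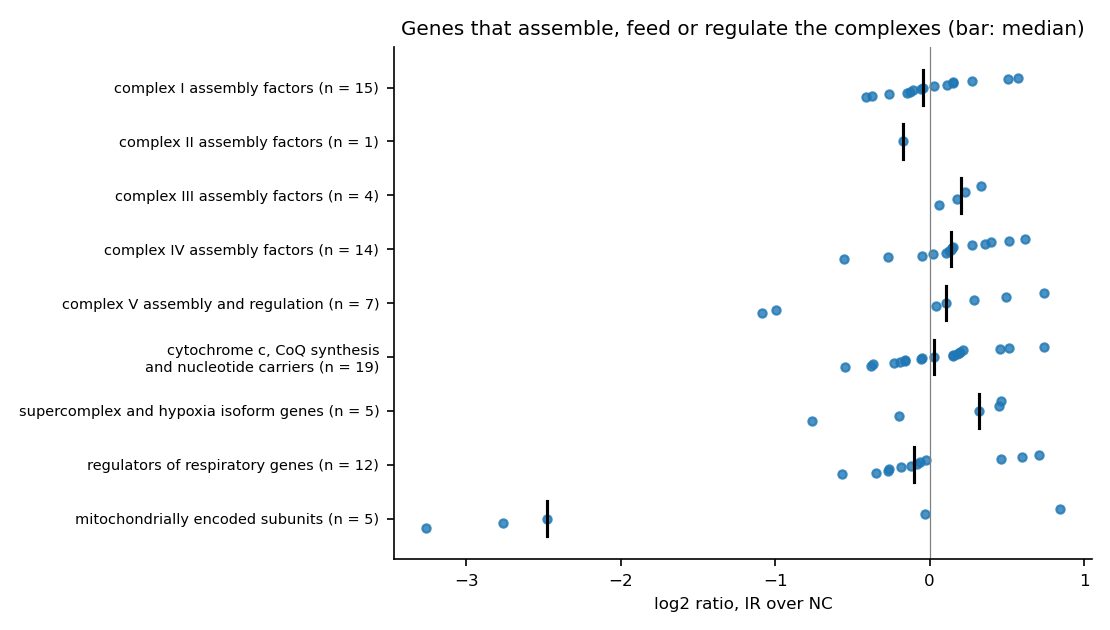
Log2 ratio of IR over NC for compared genes that assemble, feed or regulate the complexes, with a black bar for each list's median. The medians of the lists of nuclear genes lie between -0.17 and 0.32, and 3 of the 5 mitochondrially encoded genes lie below -2. The lowest list median, that of the complex II factors, rests on Sdhaf1 alone.

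Over the 5 mitochondrially encoded genes in the table the ratios ran from -3.26 to 0.85. mt-Nd4l of complex I had 17 IR and 188 NC reads (-3.26), with 98.8% of its words shared, and mt-Nd3, also of complex I, had 313 and 1829 reads (-2.48), with 98.0% shared. mt-Co3 of complex IV had 2078 IR and 14730 NC reads (-2.76), while the complex I genes mt-Nd4 and mt-Nd5 had ratios of -0.03 and 0.85. Other annotated transcripts hold 99.9% of the 50-base words of mt-Co3, against 62.2% for mt-Nd4 and 7.61% for mt-Nd5, so the ratios of mt-Nd4l, mt-Nd3 and mt-Co3 are uncertain, and that of mt-Nd4 in part.

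Promoter sequences were searched for the sites of nuclear respiratory factor 1 and of ETS factors such as GABPA, both known to drive many respiratory genes. In the 250 bases before the start, from RefSeq on GRCm38.p6, the NRF1 motif (either strand, in capitals in the Sdha window printed here) occurred in 12 of the 68 members with a window (17.6%) and in 8.93% of 8507 compared genes. The ETS motif CCGGAAG (either strand) occurred in 12 of 68 (17.6%), against 14.8%. The motif AAGATGGC (YY1, either strand) occurred in 0 of 68, against 2.08%. Members with the NRF1 motif had a median log2 ratio of 0.21 over 12 compared genes, and those without it 0.20 over 54. For the ETS motif these medians were 0.23 and 0.18. A match is a description of letters and not a bound site.

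These windows were chosen because they hold the repeated NRF1 matches (Sdha, Ndufb4 and Cox6a1, the members with more than 1) or belong to the diverging pair Cox7a2 and Cox7a2l, in which none of the motifs was found. They run 5′ to 3′ on the gene's strand and end at the base before the start. The start used is the RefSeq start nearest to the median start of the gene's annotated coding transcripts. For Cox7a2l the whole window lies inside the gene span given above, so the sequence before the 5′ end of that span was not searched. Capitals mark the NRF1 motif and, in Cox6a1 nearest to the start, the ETS motif on the reverse strand.
Sdha, chr13:74350241-74350490, minus strand: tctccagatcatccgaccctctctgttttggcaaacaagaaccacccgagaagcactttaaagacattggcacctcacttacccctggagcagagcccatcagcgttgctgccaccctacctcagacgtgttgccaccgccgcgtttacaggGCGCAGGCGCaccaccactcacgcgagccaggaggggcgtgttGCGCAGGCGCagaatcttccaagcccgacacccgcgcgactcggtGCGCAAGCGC
Ndufb4, chr16:37654369-37654618, minus strand: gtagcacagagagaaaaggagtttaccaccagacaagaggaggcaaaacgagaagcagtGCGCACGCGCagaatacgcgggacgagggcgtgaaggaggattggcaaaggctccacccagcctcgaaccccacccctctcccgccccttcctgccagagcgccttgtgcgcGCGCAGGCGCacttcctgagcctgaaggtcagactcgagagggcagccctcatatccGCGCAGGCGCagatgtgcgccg
Cox6a1, chr5:115348959-115349208, minus strand: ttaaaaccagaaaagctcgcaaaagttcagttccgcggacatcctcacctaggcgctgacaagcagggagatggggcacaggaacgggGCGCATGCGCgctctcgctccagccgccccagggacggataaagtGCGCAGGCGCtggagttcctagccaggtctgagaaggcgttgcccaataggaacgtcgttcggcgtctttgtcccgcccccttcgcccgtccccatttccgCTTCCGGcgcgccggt
Cox7a2, chr9:79759854-79760103, minus strand: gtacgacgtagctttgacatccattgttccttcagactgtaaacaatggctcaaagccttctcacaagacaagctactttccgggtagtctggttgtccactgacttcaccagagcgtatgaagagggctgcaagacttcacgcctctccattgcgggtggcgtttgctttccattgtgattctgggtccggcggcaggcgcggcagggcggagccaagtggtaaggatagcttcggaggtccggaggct
Cox7a2l, chr17:83514334-83514583, minus strand: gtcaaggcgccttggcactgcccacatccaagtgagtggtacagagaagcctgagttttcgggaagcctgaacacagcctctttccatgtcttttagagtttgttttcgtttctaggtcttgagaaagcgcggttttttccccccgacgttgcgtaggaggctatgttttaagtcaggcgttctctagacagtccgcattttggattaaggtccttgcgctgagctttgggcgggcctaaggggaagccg

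In Sdha the 3 NRF1 matches begin 98, 55 and 10 bases before the start, and in Ndufb4 191, 79 and 22 bases before it. In Cox6a1 the 2 NRF1 matches begin 162 and 117 bases before the start and the ETS match 16 bases before it. These 3 genes had log2 ratios of 0.31, 0.42 and 0.55. No match in Cox7a2 or Cox7a2l says only that these letters are not in these windows.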

How the data were processed

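RNA libraries IR and NC (1 each, total RNA depleted of ribosomal RNA, per the labels' protocols) were compared from raw read counts per gene, deposited by the authors, per the file headers, for 14694 protein-coding genes. The submitters' processing notes name cutadapt 1.9.3, HISAT2, HTSeq 0.9.1, edgeR and build mm10. The annotation release and strand setting are not given in the sources used here, so overlapping genes cannot be told apart. The other 2 value columns were not used.

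TMM factors came from edgeR 4.0.16 (R 4.3.3), with log2 CPM at a prior count of 2. Intervals are Clopper-Pearson at 95%. Calls needed 1.5-fold and an interval without 0. Intervals cover counting error only, and PCR copies are not independent molecules. The procedure was run on simulated counts that held counting error only, so that run says nothing of the spread between replicates. Positions, coding transcript lengths (median of basic transcripts), exon overlaps and shared 50-base words came from GENCODE vM21 (GRCm38), which matched 14584 genes (99.3%) and all 86 members. Processed copies outside annotated transcripts were not analysed here.

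The members and gene lists were chosen with earlier results of these data known. Named were the 3 highest, the 3 lowest and the 2 most abundant (per length) genes of each complex, all of complex II, members past 1.5-fold, isoform families, and the 2 highest and 2 lowest of each accessory list; others (such as Ndufs3, Ndufv2, Ndufs1, Ndufa8, Cox8a, Cox7c, Atp5c1, Cycs, Nrf1 and Tfam, the gene pairs and the motifs) were chosen after their values were seen. Alternatives were other scalings (total counts, DESeq2 1.42.0 size factors, upper quartile), prior counts of 0.5 and 5, other read minimums and folds, centring on a lowess trend (span 0.5, statsmodels 0.14.6) over length, and leaving out genes with overlap or shared words of at least 10%; leaving out Atp5b was added after seeing the data. Values of 1 member are not reported here.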

Additional observations from a re-analysis of the deposited data

How the results depend on the processing

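The median of the members (0.19) ran from 0.13, when centred on transcript length, to 0.21, with the upper quartile, over the alternatives run, and their mean was 0.14. The medians of complexes I to V stayed above 0 in each alternative run, while that of the 3 assembly factors of complex IV (0.02) was -0.0048 with total counts. Complex IV had the highest median except without members with shared words, where complex III had 0.34 and complex IV 0.26. The log2 ratio of summed reads (0.18) was 0.15 with total counts, 0.20 with the upper quartile, 0.12 when centred on length and 0.20 without Atp5b. The counts of 2 members at least 1.5-fold higher and 2 lower became 1 and 1 without members that overlap other exons over at least 10%, and 1 and 1 without members with at least 10% shared words. They became 0 and 1 under the 2-fold rule and 16 and 4 with a limit of 25%. Intervals above 0 numbered 48 and those below 0 numbered 14. These counts were 46 and 20 when centred on length, and 48 and 16 with total counts. Without members with shared words they were 32 and 9, over fewer members. With the upper quartile 3 members were at least 1.5-fold higher. Among the 80 single ratios, 1 changed sign with total counts, 3 with the upper quartile and 6 when centred on length, none of them a member past 1.5-fold. More of them left their counting interval: 47 of the 80 when centred on length, 4 with total counts and 3 with the upper quartile. The intervals thus do not cover the choice of processing. No paired analysis was possible because each group has 1 library and the result comes from no test. Leaving out a replicate was not possible for the same reason. Depth limits what can be said of the 6 members under 50 reads.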

Other observations

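The subunits of the vacuolar proton pump, which acidifies lysosomes and shares the pathway annotation, were left out of the members. Of the 17 compared, 9 had an interval above 0 and 7 below, with a median of 0.17. These were 52.9% and 41.2%, against 31.2% and 32.4% of all compared genes. Atp6v1a, the catalytic subunit, was highest (1572 IR and 1050 NC reads, log2 ratio 0.64, interval 0.53 to 0.76) and Atp6v1h, its regulatory partner, lowest (913 and 1349 reads, -0.50, interval -0.62 to -0.38). The proton-carrying ring gene Atp6v0c had 40034 and 34672 reads (0.27, interval 0.25 to 0.29), while the accessory subunit Atp6ap1 had 15005 and 20305 (-0.37, interval -0.40 to -0.34). These values have no replicate check.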
